A study of Arabidopsis thaliana with 6 samples.

Results

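The aliphatic glucosinolate pathway was followed through 10 of the 27655 genes measured in root tips of Arabidopsis thaliana. They are the regulators MYB28 and MYB29, the chain elongation genes BCAT4, MAM1 and IMS2 (also called MAM3), the core genes CYP79F1 and CYP83A1, the sulfotransferase genes SOT17 and SOT18, and the side chain gene FMO GS-OX1. The 10 genes were chosen from earlier results on the same libraries, by their difference between sos2-2 and wild type on salt. Their levels and folds in that comparison are therefore a description and carry no test. Tests are given only for other genes of the pathway and of the processes that feed it.

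Aliphatic glucosinolates are sulfur-rich defence compounds of the mustard family, made from methionine. Methionine is first lengthened by added carbons in a cycle that resembles leucine synthesis, its core is then built through an aldoxime, a glutathione conjugate, a thiol, a glucoside and a sulfate, and the side chain is modified last. The MYB factors of the pathway act with MYC factors of the basic helix-loop-helix family, and damaged tissue splits the finished compounds with enzymes of the myrosinase type.

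The libraries were 3 of sos2-2, a mutant of the salt tolerance kinase SOS2, and 3 of wild type. Seedlings of both genotypes, 6 days old, were held in liquid 1/2 MS medium with 100 mM NaCl for 12 hours before RNA was taken from the root tips, so every library is a salt library and a genotype difference without salt cannot be told apart from one under salt. The lesion of the sos2-2 allele is not given in the labels. The series' design text names gl1 beside sos2-2, and no label says which of the plants, if any, had a gl1 background. Nor do the labels tell separate cultures from repeat preparations within a genotype, so the spread behind each p-value could be technical only.

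SOS2 itself was at 22.0, 10.2 and 14.3 TPM in sos2-2 replicates 1, 2 and 3, against 4.99, 5.81 and 5.44 TPM in wild type; without the lesion this neither checks nor contradicts the labels. TPM is the abundance of a transcript per length, scaled to a fixed total in each library, so levels can be set side by side between genes. The genotypes differed widely: 12780 of the 19527 tested genes (65.4%) had an adjusted p under 0.05 with limma, 6665 lower and 6115 higher in sos2-2, and this is the background for every count. Correlations over genes were 0.954 to 0.982 between sos2-2 libraries, 0.976 to 0.991 between wild-type libraries and 0.726 to 0.824 across genotypes. The 6 root meristem and stem cell niche markers (PLT1, PLT2, SHR, SCR, JKD and WOX5) were all detected and none was called, and root tip is the labelled tissue. Other cell markers did move: all 6 dividing-cell markers were lower, with a summed level of 18.6 to 27.5 TPM in sos2-2 libraries and 121 to 174 TPM in wild-type libraries. Of 6 endodermis markers 5 were lower and 1 higher (123.9 to 333 TPM in sos2-2, 656 to 862 TPM in wild type). Of 5 root hair markers 4 were lower and 1 higher (359 to 472 TPM against 1526 to 1970.0 TPM), of 6 stele markers 3 were higher (60.8 to 85.8 TPM against 33.7 to 45.8 TPM), and of 3 root cap markers 2 were higher (42.0 to 43.9 TPM against 29.2 to 33.1 TPM). Of the 6 shoot photosynthesis markers, 4 were tested and 3 were lower (80.0 to 87.1 TPM against 93.3 to 117.6 TPM). No marker of these lists was listed at 0 in all libraries. The part of these cell types in the results on the pathway was not tested, and in whole root tips fewer cells of a type and less RNA per cell cannot be told apart.

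Summed over the 10 genes, the pathway stood at 18.0, 35.3 and 21.1 TPM in sos2-2 replicates 1, 2 and 3, against 329.6, 163.1 and 201.3 TPM in wild-type replicates 1, 2 and 3. Every sos2-2 library lay below every wild-type library, and the means were 24.8 ± 9.26 and 231 ± 87.2 TPM (SD, n = 3 each), a ratio of wild type to sos2-2 of 9.33. Of the 10 genes, 7 averaged 1 TPM or more across all 6 libraries and entered the fit. MYB29, CYP79F1 and FMO GS-OX1 did not. For 9 of the 10 the groups did not overlap and sos2-2 was lower, where 37.1% of all tested genes did so (72.1% did not overlap in either direction, 35% with sos2-2 higher). The 7 in the fit were called lower, as were 34.1% of all tested genes (31.3% were called higher). The call of MYB28 was lost without wild-type replicate 1, without sos2-2 replicate 1 and without sos2-2 replicate 3. Since the genes were chosen on this contrast, nothing is read from these counts and calls.

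**Figure D1:**
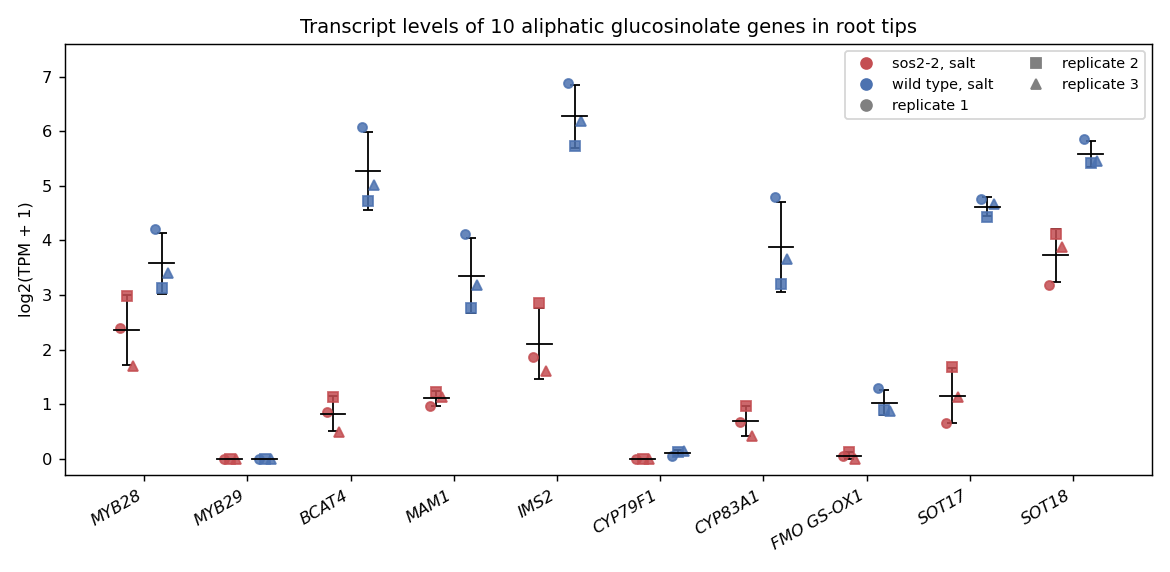
Level of each of the 10 genes on the log2(TPM + 1) scale, with 1 point per library, sos2-2 (red) left of wild type (blue) and the marker shape giving the replicate. Black lines are the mean and error bars the SD of 3 libraries. For 9 genes all sos2-2 points lie below the wild-type points, and MYB29 is at 0 throughout.

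The regulators came first in the order of the pathway. MYB28 (AT5G61420, chromosome 5, 24689069 to 24691187, minus strand, 3 exons in TAIR10.1), the main MYB activator of aliphatic glucosinolate genes, had 4.27, 6.95 and 2.25 TPM in sos2-2 replicates 1, 2 and 3, against 17.4, 7.78 and 9.59 TPM in wild type. The groups were separated narrowly, with sos2-2 replicate 2 close under wild-type replicate 2, and MYB28 was the least reduced of the 7 genes in the fit, with a ratio of wild type to sos2-2 of 2.59 and a log2 difference of -1.22 (SE 0.38). The second of its 2 isoforms held 100% of the level in every sos2-2 library and 92.4% on average in wild type, and the first isoform was detected only in wild-type replicates 1 and 3, at 2.04 and 1.06 TPM. MYB29 (AT5G07690, chromosome 5, 2446669 to 2448584), a second activator of the pathway, was listed at 0 in all 6 libraries, and so was its neighbour MYB76, the third of the family.

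The partner factors MYC2, MYC3 and MYC4 went the other way. Of 9 other regulators, 7 were tested, and 4 were higher, 1 lower and 2 not called, with a median log2 difference of 1.24 where that of all tested genes was -0.05. The list mixes activators and repressors of the pathway, so no direction of regulation is read from this count and median. MYC2, a basic helix-loop-helix factor of jasmonate signalling that binds the MYB factors, had 101, 79.7 and 147 TPM in sos2-2 and 32.5, 34.9 and 30.9 TPM in wild type (log2 difference 1.66, SE 0.21, adjusted p = 0.000393). MYC3 averaged 59.0 ± 6.54 TPM in sos2-2 and 23.1 ± 2.01 TPM in wild type, and MYC4, its relative, 21.0 ± 4.53 and 9.15 ± 0.194 TPM (n = 3 each; limma adjusted p = 0.000108 and 0.00079). EIL3, the regulator of the sulfur starvation response also known as SLIM1, was 2.50-fold higher at 28.1 ± 5.88 TPM in sos2-2 against 11.2 ± 0.937 TPM in wild type. In all 4 of these genes every sos2-2 library was above every wild-type library. IQD1, a calmodulin-binding protein known to promote glucosinolate accumulation, was the 1 that fell, to 2.84 ± 0.164 TPM in sos2-2 against 13.5 ± 0.406 TPM in wild type (adjusted p = 2.47e-05). SDI1 and SDI2, which repress the pathway under sulfur starvation by acting on MYB28, were not called: SDI1 had 22.6, 1.07 and 3.08 TPM in sos2-2 and 1.36, 1.42 and 1.55 TPM in wild type, so its excess lay in sos2-2 replicate 1, and SDI2 averaged 21.1 and 19.9 TPM. SDI1 was called higher only when sos2-2 replicate 2 was left out (adjusted p = 0.0376), and without sos2-2 replicate 1 its ratio of sos2-2 to wild type was 1.43 and not 6.15. NIG1, a MYC relative, was listed at 0 in all 6 libraries.

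The promoters of the 10 genes were searched for the short words that these factors are known to bind. The words were CACGTG and CACATG for MYC factors and ACCAACC and ACCTACC for MYB factors, on both strands, in the 250 bases before the annotated start. CACGTG is its own reverse complement, and none of the words is contained in another. Each word was in 1 of the 10 promoters, where 6.49% of 27443 promoters of the same length held CACGTG, 11.1% held CACATG, 2.69% held ACCAACC and 1.16% held ACCTACC. The promoters below are shown because 3 of them hold every match, and the fourth, of BCAT4, belongs to the gene with the largest ratio between genotypes among the 10 and holds none. They are read 5′ to 3′ on the strand of the gene from the RefSeq TAIR10.1 genome, capitals mark the matches, and the last base is the one before the start. CYP83A1 is on the minus strand at chr4:7992430-7992679, FMO GS-OX1 on the minus strand at chr1:24502777-24503026, SOT17 on the plus strand at chr1:6398281-6398530 and BCAT4 on the minus strand at chr3:6849583-6849832.
CYP83A1: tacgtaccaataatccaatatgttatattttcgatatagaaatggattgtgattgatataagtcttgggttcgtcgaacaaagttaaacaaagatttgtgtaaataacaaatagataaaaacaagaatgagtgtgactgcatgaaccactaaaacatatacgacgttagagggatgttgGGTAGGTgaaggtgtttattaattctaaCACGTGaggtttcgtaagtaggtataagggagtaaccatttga
FMO GS-OX1: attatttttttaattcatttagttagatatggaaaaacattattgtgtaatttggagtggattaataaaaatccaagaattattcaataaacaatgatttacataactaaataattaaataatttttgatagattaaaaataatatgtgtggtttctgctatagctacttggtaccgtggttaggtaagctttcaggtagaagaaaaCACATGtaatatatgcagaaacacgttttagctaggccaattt
SOT17: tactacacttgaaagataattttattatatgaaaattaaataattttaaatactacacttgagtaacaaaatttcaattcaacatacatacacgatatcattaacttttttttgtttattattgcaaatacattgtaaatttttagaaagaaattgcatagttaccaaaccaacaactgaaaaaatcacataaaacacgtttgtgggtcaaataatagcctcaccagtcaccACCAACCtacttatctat
BCAT4: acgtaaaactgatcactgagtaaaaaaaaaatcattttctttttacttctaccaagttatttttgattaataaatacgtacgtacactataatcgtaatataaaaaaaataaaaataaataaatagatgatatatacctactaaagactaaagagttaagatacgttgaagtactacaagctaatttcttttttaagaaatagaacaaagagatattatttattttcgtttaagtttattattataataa
In CYP83A1 a MYB word (ACCTACC, read on the opposite strand) lies 71 bases and a MYC word (CACGTG) 43 bases before the start. FMO GS-OX1 has CACATG 43 bases before its start, and SOT17 has ACCAACC 18 bases before its start. The other 7 promoters hold none of these words in the window, which says nothing about binding. With 50 bases after the start added, CACATG and ACCTACC were each in 2 of the 10, against 12.9% and 1.38% of all promoters.

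Chain elongation genes had ratios of wild type to sos2-2 between 1.29 (BCAT3) and 60.4 (IPMI1). BCAT4 (AT3G19710, chromosome 3, 6846969 to 6849582, 9 exons), the aminotransferase that starts the cycle by removing the amino group of methionine, had 0.807, 1.20 and 0.410 TPM in sos2-2 replicates 1, 2 and 3, against 66.7, 25.5 and 31.3 TPM in wild type. The highest sos2-2 library was far below the lowest wild-type library. MAM1 (AT5G23010, chromosome 5, 7703041 to 7706973), which condenses the resulting oxo acid with acetyl-CoA for short chains, had 0.951, 1.34 and 1.20 TPM in sos2-2 and 16.4, 5.81 and 8.07 TPM in wild type. Its groups did not overlap, and the wild-type mean was 8.66 times that of sos2-2. IMS2 (AT5G23020, chromosome 5, 7718118 to 7721866), the related synthase that also makes long chains, had 2.63, 6.23 and 2.06 TPM in sos2-2 and 117.7, 52.4 and 72.4 TPM in wild type. Its wild-type mean was the highest of the 10 genes, the groups did not overlap, and the ratio of wild type to sos2-2 was 22.2, or 34.4 without sos2-2 replicate 2. MAM1 and IMS2 lie 11144 bases apart with no protein-coding gene between them and are 83.8% identical over their coding bases.

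The other 6 chain elongation genes, which did not enter the choice, were all called lower, with a median log2 difference of -3.04. BAT5, the plastid envelope transporter of the oxo acids, had 0.226, 0.759 and 0.209 TPM in sos2-2 and 14.7, 6.11 and 8.30 TPM in wild type (log2 difference -2.88, SE 0.31, adjusted p = 0.000186); its ratio of wild type to sos2-2 of 24.4 was 44.6 without sos2-2 replicate 2. IPMI1, a small subunit of the isomerase of the cycle, had 0.360, 0.647 and 0.488 TPM in sos2-2 and 48.7, 19.6 and 22.0 TPM in wild type. Its ratio of wild type to sos2-2 was 60.4 (limma adjusted p = 4.61e-05), beside 51.1 for BCAT4. Both ratios divide by low sos2-2 means, 0.498 TPM for IPMI1 and 0.805 TPM for BCAT4, so their size and order are uncertain. IPMI2, another small subunit, averaged 3.41 ± 1.92 TPM in sos2-2 and 38.0 ± 15.4 TPM in wild type. IMD1, the dehydrogenase of the cycle, averaged 9.43 ± 5.44 and 123 ± 35.1 TPM (n = 3 each; limma adjusted p = 0.00043 for IPMI2 and 0.00013 for IMD1). IIL1 and BCAT3, which leucine synthesis is also known to use, had ratios of wild type to sos2-2 of 1.51 and 1.29. IIL1, the large subunit of the isomerase, averaged 125 ± 8.88 TPM in sos2-2 and 189 ± 26.1 TPM in wild type (adjusted p = 0.00626). BCAT3, a plastid aminotransferase, averaged 62.7 ± 4.69 and 80.9 ± 10.3 TPM (adjusted p = 0.0431), and its call was lost in 4 of the 6 fits that left out 1 library, with adjusted p of 0.144 without wild-type replicate 1, 0.109 without wild-type replicate 3, 0.0912 without sos2-2 replicate 1 and 0.104 without sos2-2 replicate 3.

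The paralogs that serve leucine synthesis were set beside the chain elongation genes of the same enzyme families. Of the 5, IMS1 and IMD3 were called higher, and IPMS1, SSU1 and IMD2 were not called in either direction, with a median log2 difference of 0.33. That is 40% called higher, where 31.3% of all tested genes were, and nothing is read from so small a count. IMS1, a synthase of the leucine pathway, averaged 23.3 ± 0.678 TPM in sos2-2 and 13.3 ± 1.01 TPM in wild type (adjusted p = 0.000669). IPMS1, the other synthase, averaged 74.4 ± 10.2 and 58.5 ± 1.41 TPM (adjusted p = 0.0527), and was called higher without sos2-2 replicate 1 (0.0113) and under TMM-type scaling (0.0254). SSU1, the small subunit for leucine, had 214, 228 and 216 TPM in sos2-2 and 256, 249.7 and 241 TPM in wild type. Every sos2-2 library of SSU1 was below every wild-type library, by a log2 difference of -0.18 that was not called (adjusted p = 0.146). IMD2, a dehydrogenase of leucine synthesis, averaged 46.1 ± 6.38 TPM in sos2-2 and 41.3 ± 0.623 TPM in wild type. IMD3, the third dehydrogenase, averaged 97.7 ± 7.82 TPM in sos2-2 and 63.7 ± 6.93 TPM in wild type (adjusted p = 0.00402). Within each library the log2 ratio of IPMI1 to SSU1 was -7.20 ± 0.0939 in sos2-2 and -3.12 ± 0.662 in wild type (SD, n = 3 each). That of IMD1 to IMD3 was -3.36 ± 0.71 in sos2-2 and 0.91 ± 0.274 in wild type, so IMD3 was the more abundant in sos2-2 and IMD1 in wild type. The ratio of IPMI2 to SSU1 fell by 3.01 and that of IMD1 to IMD2 by 3.8 on the log2 scale. All 4 ratios were lower in every sos2-2 library than in any wild-type library; a two-sided exact permutation test gave p = 0.1 for each, also when adjusted over the 4, the smallest value that 3 against 3 samples allow. IMD1 and IMD3 are 95% identical over their coding bases, so reads could be assigned to either, and their levels moved in opposite directions.

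**Figure D2:**
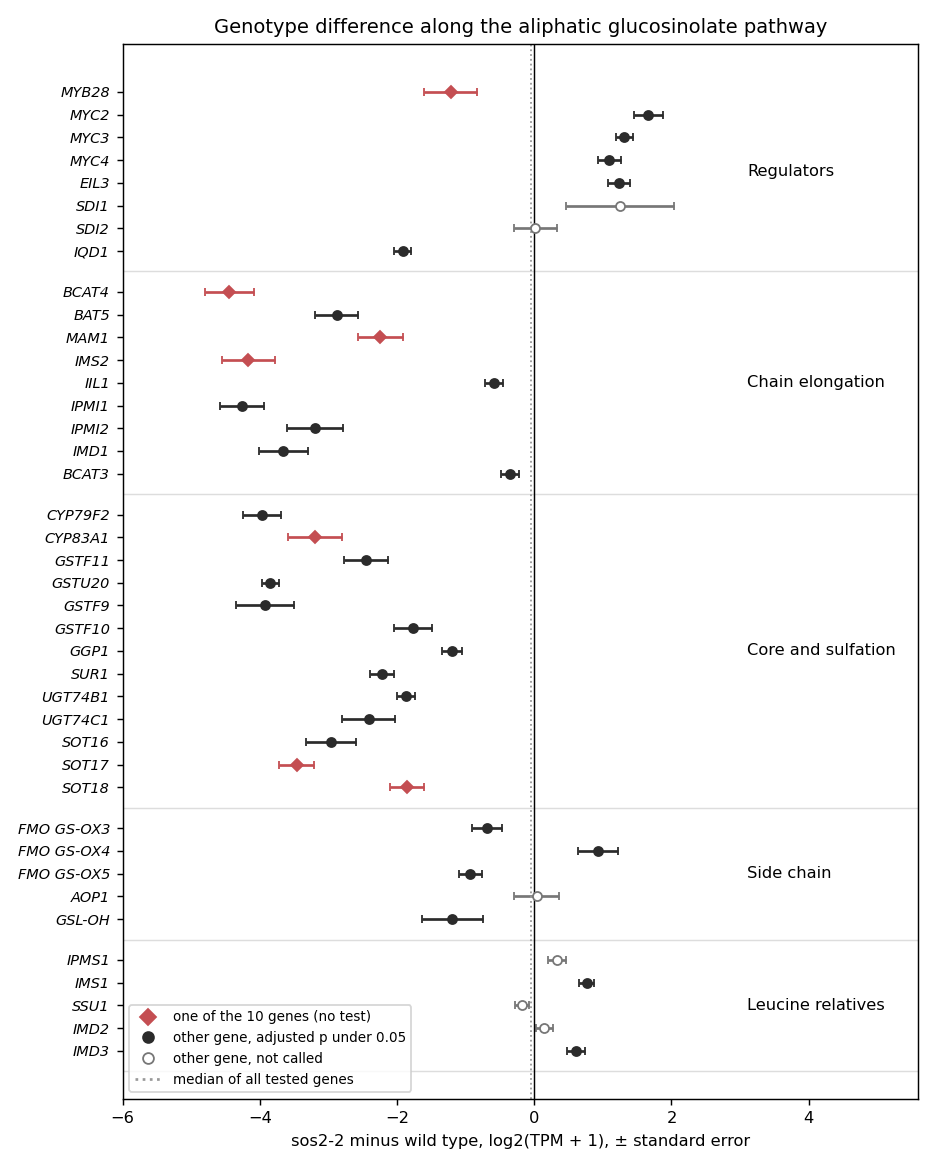
Genotype difference of each gene in the order of the pathway, as sos2-2 minus wild type on the log2(TPM + 1) scale with its standard error. Red diamonds are the genes among the 10 that entered the fit (no test), filled circles other genes with an adjusted p under 0.05, open circles genes not called, and the dotted line the median of all tested genes (-0.05). Elongation and core genes lie left of 0, the MYC genes and EIL3 right of it, and the leucine relatives between -0.18 and 0.77.

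Entry into the core structure passes through CYP79F enzymes, which turn elongated methionine into aldoximes. CYP79F1 (AT1G16410, chromosome 1, 5608682 to 5612064), which accepts short and long chains, was listed at 0 in all 3 sos2-2 libraries and was at 0.0317, 0.0960 and 0.111 TPM in wild type, near the bottom of the scale in both genotypes, so no fold is given. Its neighbour CYP79F2, which prefers long chains and lies 1183 bases away, had 0.525, 0.831 and 0.570 TPM in sos2-2 and 38.9, 19.0 and 20.1 TPM in wild type, a ratio of wild type to sos2-2 of 40.5 (log2 difference -3.97, SE 0.27, adjusted p = 3.02e-05). The split between this pair is uncertain, because their coding bases are 91.9% identical and share a run of 100 identical bases. That run is shown with 30 bases on each side, as coding bases 964 to 1123 of CYP79F1 and 961 to 1120 of CYP79F2 from RefSeq TAIR10.1, with the 3 differing positions in capitals.
CYP79F1: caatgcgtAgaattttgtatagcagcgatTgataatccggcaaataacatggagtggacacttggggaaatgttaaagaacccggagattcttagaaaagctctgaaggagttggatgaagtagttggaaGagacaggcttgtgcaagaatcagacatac
CYP79F2: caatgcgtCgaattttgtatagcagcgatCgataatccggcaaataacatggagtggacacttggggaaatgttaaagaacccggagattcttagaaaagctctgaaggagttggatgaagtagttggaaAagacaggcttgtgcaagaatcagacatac
A read inside the run could come from either gene, and the deposited values place nearly all of the signal on CYP79F2.

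The next steps of the core were lower as well. CYP83A1 (AT4G13770, chromosome 4, 7990429 to 7992429), which oxidises the aliphatic aldoximes, had 0.586, 0.964 and 0.341 TPM in sos2-2 replicates 1, 2 and 3, against 26.8, 8.16 and 11.7 TPM in wild type. The groups stood well apart, but the wild-type libraries differed among themselves, and the ratio of wild type to sos2-2 of 24.7 was 15.8 without wild-type replicate 1. SOT17 (AT1G18590, chromosome 1, 6398531 to 6400029), a sulfotransferase that completes the aliphatic core, had 0.584, 2.20 and 1.19 TPM in sos2-2 and 26.3, 20.6 and 24.3 TPM in wild type. SOT18 (AT1G74090, chromosome 1, 27862814 to 27864193), its relative with 78.9% identical coding bases, had 8.09, 16.4 and 13.7 TPM in sos2-2 and 56.8, 41.9 and 43.0 TPM in wild type. Both were separated between genotypes, SOT17 by a ratio of 17.9 and SOT18 by 3.71, and SOT18 kept the highest level of the 10 genes in sos2-2.

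All 10 other core genes were called lower, with a median log2 difference of -2.43, and for all 10 the groups did not overlap. Among the glutathione transferases, GSTU20 averaged 3.15 ± 0.363 TPM in sos2-2 and 58.9 ± 4.95 TPM in wild type (adjusted p = 2.98e-06), and GSTF11 had 0, 0.589 and 0 TPM in sos2-2 against 8.53, 5.07 and 3.47 TPM in wild type (adjusted p = 0.000434). Those are the transferases assigned to aliphatic compounds. GSTF9 and GSTF10, assigned to indole compounds, were far more abundant, at 92.2 ± 52.2 and 376 ± 133 TPM in sos2-2 and 1243 ± 83.8 and 1231 ± 133 TPM in wild type. GGP1, which trims the glutathione conjugate, averaged 83.9 ± 11.3 TPM in sos2-2 and 193 ± 20.5 TPM in wild type. SUR1, the lyase that releases the thiol for all glucosinolates, averaged 17.2 ± 3.52 TPM in sos2-2 and 83.8 ± 12.5 TPM in wild type (adjusted p = 4.73e-05). Of the glucosyltransferases, UGT74B1 averaged 25.2 ± 3.13 and 94.5 ± 6.32 TPM (adjusted p = 2.81e-05), and UGT74C1 3.90 ± 2.55 and 24.1 ± 9.21 TPM, a ratio of 6.17 that was 9.81 without sos2-2 replicate 1. SOT16, the sulfotransferase that prefers indole compounds, lies 151 bases from SOT18 and had 10.7, 32.0 and 28.9 TPM in sos2-2 against 162, 180 and 183 TPM in wild type (log2 difference -2.96, SE 0.37, adjusted p = 0.000361). The core genes shared with indole glucosinolates were thus among those called lower.

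Side chain genes did not move as a block. FMO GS-OX1 (AT1G65860, chromosome 1, 24498954 to 24502776), a flavin monooxygenase that oxygenates the sulfur of the side chain, was at 0.031, 0.0892 and 0 TPM in sos2-2 and 1.46, 0.869 and 0.845 TPM in wild type. It was near 0 in every sos2-2 library and about 1 TPM in wild type. Of 9 other side chain genes in the table, 5 were tested, and 3 were lower, 1 higher and 1 not called, with a median log2 difference of -0.68. FMO GS-OX5 was lower at 32.1 ± 6.54 TPM in sos2-2 against 61.5 ± 5.30 TPM in wild type (adjusted p = 0.00167). FMO GS-OX4 was higher, with 403, 329 and 362 TPM in sos2-2 and 116, 266 and 222 TPM in wild type (adjusted p = 0.0243). That call was lost without sos2-2 replicate 1 (0.0669) or sos2-2 replicate 3 (0.0651). FMO GS-OX3 was at 0.529 ± 0.211 TPM in sos2-2 and 1.47 ± 0.483 TPM in wild type (adjusted p = 0.0252), a call lost without sos2-2 replicate 2 (0.0523) or sos2-2 replicate 3 (0.0845). GSL-OH, which hydroxylates butenyl side chains, averaged 258 ± 125 TPM in sos2-2 and 554 ± 185 TPM in wild type (adjusted p = 0.0475). Its call was lost without wild-type replicate 2 (0.15), wild-type replicate 3 (0.116) or sos2-2 replicate 1 (0.0695). AOP1, a relative of the enzymes that form alkenyl and hydroxyalkyl chains, averaged 1.98 ± 1.28 and 1.73 ± 0.297 TPM and was not called (adjusted p = 0.937). FMO GS-OX2, AOP3, SCPL17 and BZO1 were between 0 and 0.15 TPM in every library, and AOP2 was not analysed here.

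Together, the 21 tested enzymes and transporters of the pathway outside the 10 gave 19 lower, 1 higher and 1 not called, with a median log2 difference of -2.22. Of all tested genes, 34.1% were called lower and 31.3% higher. The 19 are not all aliphatic genes in the strict sense. They include GSTF9, GSTF10 and SOT16, assigned to indole compounds or preferring them, and SUR1, which serves all glucosinolates. The order of the 10 by level differed between genotypes. In wild type IMS2 (80.9 ± 33.5 TPM) was followed by SOT18 (47.2 ± 8.30 TPM), BCAT4 (41.2 ± 22.3 TPM), SOT17 (23.7 ± 2.89 TPM), CYP83A1 (15.6 ± 9.91 TPM), MYB28 (11.6 ± 5.13 TPM) and MAM1 (10.1 ± 5.58 TPM), and each of these overlapped the next. FMO GS-OX1 (1.06 ± 0.348 TPM) lay below them without overlap, and CYP79F1 and then MYB29 below it, also without overlap. In sos2-2 SOT18 (12.7 ± 4.22 TPM) stood alone at the top, MYB28 (4.49 ± 2.36 TPM) and IMS2 (3.64 ± 2.26 TPM) came next and overlapped, and SOT17 (1.32 ± 0.819 TPM), MAM1 (1.17 ± 0.199 TPM), BCAT4 (0.805 ± 0.394 TPM) and CYP83A1 (0.630 ± 0.314 TPM) each overlapped their neighbour. FMO GS-OX1 (0.0401 ± 0.0453 TPM) lay below them without overlap, over MYB29 and CYP79F1 at 0. By mean, MYB28 was sixth in wild type and second in sos2-2. It overlapped the gene below it in both genotypes, and in sos2-2 IMS2 also overlapped SOT17. Since the genes were chosen on this contrast, nothing is read from the change in rank.

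The 7 genes in the fit also shared their highest library within each genotype, a feature that the choice did not use. Replicate 2 was the highest of the sos2-2 libraries and replicate 1 the highest of the wild-type libraries for 7 of 7, and for 6 of the 6 other chain elongation genes, where 14.5% of all tested genes had both. BCAT4, CYP83A1, BAT5 and IPMI1 averaged only 0.805, 0.630, 0.398 and 0.498 TPM in sos2-2. They passed the filter of 1 TPM through their wild-type levels. MAM1 ran from 0.951 to 1.34 TPM in sos2-2. At unknown depth, the highest sos2-2 library of these genes is uncertain. Sos2-2 replicate 2 was 2.65 times the mean of the other sos2-2 libraries for IMS2, 2.49 times for SOT17 and 1.25 times for MAM1. Wild-type replicate 1 was 2.70 times the mean of the other wild-type libraries for CYP83A1, 2.35 times for BCAT4 and 1.17 times for SOT17. Both held for 3 of the 10 other core genes and for 0 of the 15 indole glucosinolate genes. Genes of methionine supply had both in 9 of 16, dividing-cell markers in 4 of 6, root meristem and stem cell niche markers in 5 of 6 and endodermis markers in 0 of 6. A row beside the ribosomal RNA genes of chromosome 2 (AT2G01021, 6571 to 6672) was highest in the same libraries, at 4386, 36620.0 and 1908 TPM in sos2-2 replicates 1, 2 and 3 and 55550.0, 17910.0 and 14360.0 TPM in wild type. The part of RNA quality and of these cells in the shared spread was not tested.

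**Figure D3:**
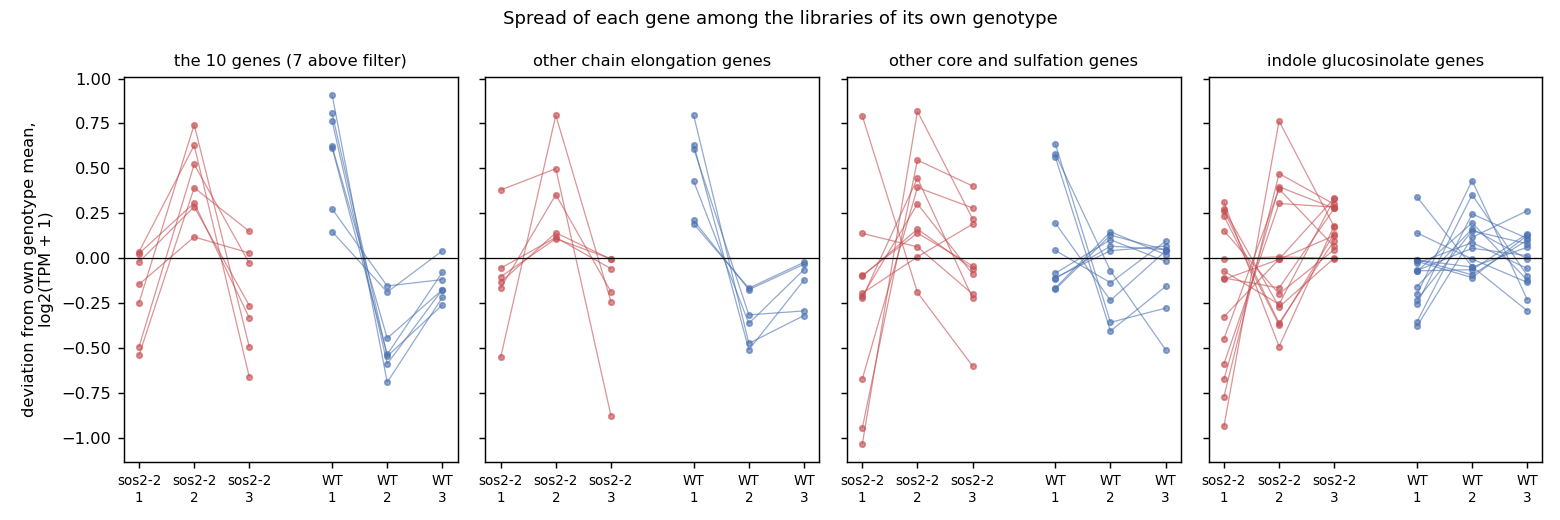
Deviation of each tested gene from the mean of its own genotype on the log2(TPM + 1) scale, by library, with sos2-2 in red and wild type in blue. Lines only join the values of 1 gene, since replicates have no order. In the first 2 panels every gene peaks in sos2-2 replicate 2 and wild-type replicate 1; in the indole panel 0 of 15 genes do both.

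Over the 6 libraries, the profile nearest to the median of the 7 genes was that of BAT5, at a Euclidean distance of 0.269 on the log2 scale among 19520 other genes. It was followed by NAS1 (nicotianamine synthase) at 0.409, AT5G10390 (a histone) at 0.419, AT5G19730 (a pectin lyase-like protein) at 0.421 and AT4G02800 (a coiled-coil protein) at 0.442. The 10 genes were chosen for being lower in sos2-2, so a profile near theirs is lower too and its direction is no result. The distance spans both genotypes, so it also depends on the size of that difference. Distances and ranks are therefore a description only. The other aliphatic enzymes were spread widely: GSTF11 was at rank 109, IPMI2 at 139, SUR1 at 148, IPMI1 at 967, IIL1 at 5145, BCAT3 at 6793 and FMO GS-OX4 at 16524, and the regulator MYC2 was at 17937. Genes outside the aliphatic pathway were as near, with SAL1 at rank 37, APK2 at 140 and the indole gene CYP79B2 at 152.

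The genes next to the 10 on the chromosome were called in both directions. Of the 18 protein-coding genes next to them, 14 were tested, and 3 were higher, 7 lower and 4 not called, with a median log2 difference of -0.52. Of these neighbours 3 are pathway genes themselves, MYB76, CYP79F2 and SOT16, and among the 15 others 12 were tested, with 3 higher, 5 lower and 4 not called. Since 31.3% of all tested genes were called higher and 34.1% lower, nothing particular to the neighbours is read from these counts. TET12, the tetraspanin gene next to IMS2, had a log2 difference of -3.19 (adjusted p = 7.17e-06) and was named after its value was seen.

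The processes that feed the pathway were lower in part. In methionine supply, 12 of 16 genes were lower, 3 higher (MTO3, HMT1 and HMT3, the last 2 being homocysteine methyltransferases) and 1 not called, with a median log2 difference of -1.18. MS2, a methionine synthase, had 3.08, 9.90 and 6.19 TPM in sos2-2 and 157, 80.2 and 128 TPM in wild type (adjusted p = 0.000104). SAM1 and SAM2, which turn methionine into S-adenosylmethionine, averaged 155 ± 32.7 and 160 ± 34.5 TPM in sos2-2 and 622 ± 53.8 and 774 ± 32.2 TPM in wild type. MAT3 and MTO3 serve the same step and differed in opposite directions. MAT3 was lower, at 160 ± 63.8 TPM in sos2-2 against 583 ± 73.2 TPM in wild type (limma adjusted p = 0.00078). MTO3 was higher, at 866 ± 92.7 TPM in sos2-2 against 574 ± 89.8 TPM in wild type (limma adjusted p = 0.00934). HMT1 was higher, at 140 ± 4.96 TPM in sos2-2 against 71.7 ± 2.63 TPM in wild type (adjusted p = 0.000172). In sulfate assimilation, 11 of 17 genes were lower, 0 higher and 6 not called, with a median of -0.73. The smallest p-values of this list belonged to APK2 and SAL1, which act in the supply and turnover of PAPS, the sulfate donor of the sulfotransferases. APK2, a kinase that makes PAPS, had 6.98, 4.88 and 7.10 TPM in sos2-2 and 59.6, 52.0 and 55.1 TPM in wild type (log2 difference -2.96, SE 0.15, adjusted p = 1.08e-05). The other APK genes differed less. APK1 averaged 45.2 ± 5.00 TPM in sos2-2 and 59.1 ± 4.54 TPM in wild type (limma adjusted p = 0.0283). Its call was lost without wild-type replicate 2 (0.0854), wild-type replicate 3 (0.0882) or sos2-2 replicate 1 (0.0639), and under TMM-type factors (0.0554). APK3 and APK4 were not called. SAL1, the phosphatase that clears the byproduct of sulfation, had 11.4, 18.4 and 12.8 TPM in sos2-2 and 98.5, 83.6 and 97.4 TPM in wild type (adjusted p = 2.7e-05). APS1, an ATP sulfurylase, and APR1, a reductase on the branch to cysteine, were also lower, at 76.1 ± 20.4 and 24.6 ± 4.76 TPM in sos2-2 and 245 ± 19.0 and 64.3 ± 5.71 TPM in wild type. APR2 and APR3 were not called.

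Indole glucosinolate genes, made from tryptophan with part of the same core, were split: of 15, 7 were higher, 5 lower and 3 not called, with a median log2 difference of 0.43. The 5 lower ones were MYB34, CYP79B2, CYP79B3, CYP83B1 and IGMT5. GSTF9, GSTF10, SOT16 and SUR1, all called lower, were counted with the aliphatic core and not here, so the split depends partly on how the lists were drawn. CYP79B2, which makes the indole aldoxime, had 12.2, 23.5 and 23.1 TPM in sos2-2 and 149, 140.0 and 161 TPM in wild type (adjusted p = 6.14e-05). MYB51, an activator of the indole branch, was higher at 116 ± 25.0 TPM in sos2-2 against 26.2 ± 3.33 TPM in wild type (adjusted p = 6.11e-05), and so were the modifying enzymes IGMT2 (399 ± 84.2 against 76.1 ± 7.37 TPM) and CYP81F2 (69.1 ± 14.9 against 19.8 ± 1.11 TPM). MYB28, whose direction was part of the choice, and MYB51 thus differed in opposite directions in the same libraries. The other MYB genes of the indole list did not share the direction of MYB51. MYB34 was lower, at 24.8 ± 0.118 TPM in sos2-2 against 41.6 ± 3.52 TPM in wild type, and MYB122 was not called.

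All 3 glucosinolate transporters were lower: NPF2.11 averaged 20.2 ± 7.84 TPM in sos2-2 and 61.5 ± 3.48 TPM in wild type, NPF2.10 22.2 ± 3.33 and 40.0 ± 6.70 TPM, and NPF2.9 20.4 ± 3.74 and 38.2 ± 0.809 TPM (n = 3 each; limma adjusted p = 0.00106, 0.00333 and 0.00107). Of 21 breakdown genes, 14 were tested, and 8 were lower, 1 higher and 5 not called, with a median log2 difference of -1.26. TGG5, a root myrosinase, averaged 59.1 ± 3.78 TPM in sos2-2 and 149 ± 14.6 TPM in wild type (adjusted p = 8.6e-05); its coding bases are 97.7% identical to those of TGG4, which was at 59.8 ± 3.33 and 141 ± 19.9 TPM, so the split is uncertain. NSP4, a nitrile specifier, fell to 15.0 ± 1.91 TPM in sos2-2, against 48.2 ± 6.34 TPM in wild type. BGLU21, a beta-glucosidase of the root, fell to 148 ± 45.0 TPM in sos2-2, against 933 ± 185 TPM in wild type. PEN2, an atypical myrosinase known for cleaving indole glucosinolates, was the 1 that was higher, with 510, 352 and 424 TPM in sos2-2 and 137, 125 and 121 TPM in wild type (adjusted p = 7.76e-05).

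**Figure D4:**
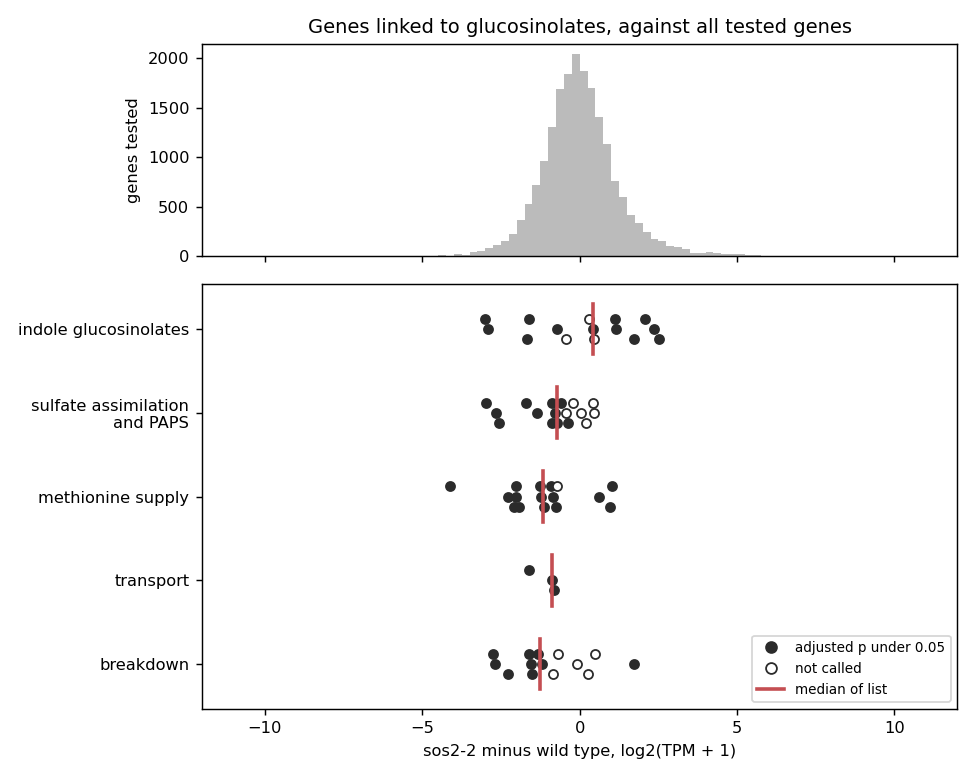
Genes of 5 linked processes by their genotype difference, sos2-2 minus wild type on the log2(TPM + 1) scale, under a histogram of the same difference for all 19527 tested genes. Filled points have an adjusted p under 0.05, open points were not called, and the red bar is the median of each list. The medians of 4 lists lie between -1.26 and -0.73, and that of indole glucosinolates is 0.43.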

How the data were processed

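The 6 libraries are transcriptomic RNA, extracted with TRIzol per the labels. The authors deposited TPM per transcript isoform in 48359 rows. Column sums of 1000000 gave the unit. Per the submitters' processing notes, kallisto 0.46.2, sleuth 0.30.0 and TAIR10 were used, in roles and an order that are not stated. The annotation release, any filter and the strand setting are not given here. Depth cannot be read from TPM and is unknown, so no counting interval is given, and a value of exactly 0 may be a failed estimate. There were 0 columns of other samples.

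Isoforms were summed to 27655 genes, of which 27445 had an entry in the TAIR10.1 annotation. That annotation also gave names, positions, promoters and coding sequences. Of 160 list entries 153 carry their name in it (not SDI1, SDI2, UGT74C1, GSL-OH, SSU1, MS1 and HMT1). Genotypes were compared with limma 3.58.1 (R 4.3.3). The model was fitted to log2(TPM + 1) of 19527 genes averaging 1 TPM or more, with genotype as its only term, a mean-variance trend and robust moderation. Benjamini-Hochberg adjustment ran over the whole table, and a gene was called when its adjusted p was under 0.05. Log2 differences are sos2-2 minus wild type on that scale and understate low genes. Ratios are of mean TPM and are uncertain where the sos2-2 mean is under 1 TPM. Values after ± are SDs.

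The 10 genes, the lists, the tests and the naming rule were chosen with earlier results of these data known. Named were all 10 genes, all other aliphatic and leucine-related genes, up to 4 called genes per further list by p, neighbours that share the pathway and the 5 nearest profiles. MYB34, MYB122, CYP79B3, CYP83B1, IGMT5, MTO3, MAT3, HMT3, APK1, APK3, APK4, APR2, APR3 and TGG4 were named after their values were seen. Alternatives changed the filter, the pseudocount (0.1 or 5), the scaling (trimmed-mean factors of the TMM type, or quantile normalization), the feature, the promoter window, the replicate block and the samples. Figures were drawn in Python 3.11.15.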

Additional observations from a re-analysis of the deposited data

How the results depend on the processing

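For 28 results that answer a comparison, 188 of 192 values under other settings were the same. With 1 sample left out, 136 of 144 were. A count was the same when it stayed within 1.5 times. The genotype difference in the summed level of the 10 genes was the same when it stayed within 1 SD (0.505). That difference, sos2-2 minus wild type, was -3.17 on the log2 scale and ran from -3.44 to -2.88 over samples left out. The exceptions were small counts. Side chain genes called lower were 1 when isoforms were tested on their own, and ran from 1 to 3 over samples left out. Those called higher ran from 0 to 1, as did all pathway enzymes called higher, because FMO GS-OX4 is that gene. Sulfate assimilation genes called higher ran from 0 to 1. With the 300-base promoter window, CACATG and ACCTACC were in 2 promoters each. Across 98 genes outside the 10, there were 1266 pairs of gene and setting. Of these pairs, 1224 kept their call, 26 lost it, 16 gained it and 0 reversed. The cause was not tested.

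The replicate number as a block called 12547 genes in all, and 2 sulfate assimilation genes higher (APS3 and GSH1) where the fit without it called 0. The labels do not say whether the numbers pair the samples. Deviations of same-numbered samples correlated at 0.177, 0.0505 and 0.0576. Those of differently numbered samples ran from -0.197 to 0.182, the highest being between sos2-2 replicate 3 and wild-type replicate 2. Deviations within a genotype are not independent of each other, so these correlations cannot decide whether the samples were paired. BCAT3 and FMO GS-OX3 lost their calls under the block, with adjusted p of 0.0813 and 0.0539. BCAT3 also lost it without a filter (0.0523) and under TMM-type factors (0.0775), and GSL-OH without a filter (0.071), under TMM-type factors (0.0531) and under quantile normalization (0.0558). Unknown depth limits what can be said of genes near 0, and of MYB29 at 0 in all libraries.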
